A study of Mus musculus with 6 samples.

Results

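The solute carrier family Slc7 with its partner subunit Slc3a2 was measured in whole fetal livers of mouse embryos at embryonic day 11.5. The 10 genes are Slc7a1, Slc7a2, Slc7a3, Slc7a5, Slc7a6, Slc7a7, Slc7a8, Slc7a10, Slc7a11 and Slc3a2, and all 10 matched 1 gene each among the 23279 genes tested. They are a part of the family, picked with earlier results of the same comparison known, and other measured Slc7 genes are given further below. Values are log2 expression values from 6 Affymetrix arrays. The first group is 3 livers labelled Stab2Cre;Gata4 knockout, in which Cre recombinase driven by the Stab2 gene's promoter, active in sinusoidal endothelium, is meant to delete both floxed copies of the transcription factor gene Gata4. The second group is 3 control livers titled Stab2Cre;Gata4 heterozygous, so by their titles these carry the Cre and 1 floxed copy too. The parents were Stab2-Cretg/wt;Gata4fl/wt and Gata4fl/fl, and the floxed line was B6;129-Gata4tm1.1Sad/J, per the labels. The labels do not say whether an array holds 1 embryo or a pool, nor which embryos shared a litter.

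Slc7 proteins carry amino acids across the plasma membrane and fall into 2 kinds. The cationic amino acid transporters work alone and take up arginine, lysine and ornithine. The light chains work only when bound to a heavy chain, for most of them the glycoprotein encoded by Slc3a2, and mostly exchange one amino acid for another. Both kinds feed protein synthesis, and several are known targets of the amino acid response, in which the transcription factor ATF4 is made when amino acids run short. In the fetal liver these transporters serve hepatoblasts, endothelium, mesenchyme and a large population of blood cells.

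Slc7a3 (2.98 on the log2 scale) and Slc7a11 (0.76) were past the threshold as higher in livers labelled knockout. Slc7a8 differed by -0.86 without passing the test, and of the other 7 genes Slc7a2 differed by 0.66 and the rest by at most 0.21 in size. The promoter windows of Slc7a11, Slc7a7 and Slc7a8 are shown because Slc7a11 and Slc7a7 carry the ATF4 element and differ in their values, and because Slc7a8 is the gene with the largest negative difference. Each is 300 bases of RefSeq sequence (GRCm38.p6), from 250 bases before to 50 after an annotated start, written on the gene's own strand, which is minus for all 3. They lie at chr3:50443564-50443863 for Slc7a11, at chr14:54417895-54418194 for Slc7a7 and at chr14:54781837-54782136 for Slc7a8. Capitals mark matches to the motifs named next.
Slc7a11: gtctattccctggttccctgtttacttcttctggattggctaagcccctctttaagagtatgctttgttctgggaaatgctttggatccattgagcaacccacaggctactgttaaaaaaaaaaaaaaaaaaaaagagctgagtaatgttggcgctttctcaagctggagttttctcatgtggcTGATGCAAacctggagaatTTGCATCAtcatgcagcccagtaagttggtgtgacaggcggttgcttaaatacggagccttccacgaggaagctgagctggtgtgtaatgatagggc
Slc7a7: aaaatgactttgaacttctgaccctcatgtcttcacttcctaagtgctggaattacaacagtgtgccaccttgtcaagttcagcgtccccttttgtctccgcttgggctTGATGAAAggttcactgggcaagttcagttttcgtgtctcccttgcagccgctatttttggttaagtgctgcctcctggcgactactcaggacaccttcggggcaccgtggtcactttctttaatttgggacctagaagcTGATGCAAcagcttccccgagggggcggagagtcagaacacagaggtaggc
Slc7a8: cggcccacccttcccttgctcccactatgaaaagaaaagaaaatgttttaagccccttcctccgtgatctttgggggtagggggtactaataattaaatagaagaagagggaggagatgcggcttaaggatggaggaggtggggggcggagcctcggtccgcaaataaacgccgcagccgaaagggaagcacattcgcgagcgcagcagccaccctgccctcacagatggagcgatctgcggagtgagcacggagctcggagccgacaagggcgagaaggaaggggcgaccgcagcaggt

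The motifs searched on both strands were TGATGNAA (the element bound by ATF4 with C/EBP factors), TGACNNNGC (core of the antioxidant response element bound by NRF2), ACGTG (core of the hypoxia response element) and AGATAA (bound by GATA factors). RefSeq windows were found for 7 of the 10 genes, 13 windows in all, and Slc7a2, Slc7a3 and Slc7a5 had no entry. The ATF4 element was matched in 3 of the 13 windows, from 2 genes, against 3.97% of all 32851 windows. The matched Slc7a7 windows overlap and share a site, so windows of a gene are not independent. In the Slc7a11 window it occurred once on each strand, at positions -66 to -59 and -47 to -40 from the start, as TGATGCAA and TTGCATCA. The Slc7a7 window shown also held 2 matches, TGATGAAA and TGATGCAA, at -141 to -134 and at -1 to 7. At least 2 matches occurred in 23 of the 32851 windows. The Slc7a8 window matched none of the 4 motifs. AGATAA was matched in 2 of the 13 windows, of 1 gene, Slc7a7, against 11.2% of all windows. TGACNNNGC was matched in 3, of Slc7a1 and Slc7a6 (12.4% of all windows), and ACGTG in 5, of Slc7a6, Slc7a7 and Slc3a2 (19.6%). The Slc7a6 matches to ACGTG lay partly inside its matches to TGACNNNGC. These matches describe the letters only.

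Several arrays stood apart before any group comparison. Gata4 read 10.38, 10.26 and 10.64 in livers labelled knockout, against 9.90, 9.96 and 9.87 in control livers. It was thus not lower but higher in the first group, by 0.51 (SE 0.12, limma adjusted p = 0.0409). Liver mesenchyme also makes Gata4 and the position of the probes relative to the deleted exons is unknown, so Gata4 is no check of the labels, on which each direction below rests. By Xist and Uty, all 3 livers labelled knockout and control replicate 2 were female (Xist at least 10.19) and control replicates 1 and 3 were male (Uty at least 8.15), so sex differed between the groups, and differences against control replicate 2 alone are given too. Heart muscle markers were highest in labelled knockout replicate 3 and control replicate 2 (Myh6 6.59 and 8.38), and neural markers in labelled knockout replicate 2 (Sox2 6.02, at most 4.04 on the other arrays). As liver markers, Alb, Afp and Ttr were measured on all arrays, and 0 of 9 hepatoblast markers passed the limma test (2 higher at an unadjusted p under 0.05). With 3 arrays a group, precision is limited by their number. A lower value in whole liver cannot tell fewer cells of a type from less RNA per cell.

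The cationic amino acid transporters differed from one another. Slc7a3, the cationic transporter CAT3, is on the X chromosome and is best known from neural tissue. It read 7.40, 6.37 and 7.06 in labelled knockout replicates 1, 2 and 3, against 4.29, 3.65 and 3.95 in control replicates 1, 2 and 3. All 3 livers labelled knockout were above all 3 controls, and the smallest of the 9 differences between single arrays was 2.09, the largest 3.75. The means were 6.95 ± 0.52 in livers labelled knockout and 3.96 ± 0.32 in control livers (SD, n = 3 each), a difference of 2.98 (SE 0.26) in normalised log2 values. The control values lie near the lower quartile of all values on an array, 3.72. The files used here hold no background or detection value, so how much of the control signal is background is unknown, and no fold in RNA is given for Slc7a3. The control that read lowest, replicate 2, is the female one, and against it alone the difference was 3.30. Neural markers were highest in labelled knockout replicate 2, which had the lowest Slc7a3 value of its group, and without that array the difference was 3.27. Without the 2 arrays highest in heart muscle markers it was 2.77.

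Slc7a1, the widely expressed cationic transporter CAT1, read 8.52, 8.30 and 8.35 in livers labelled knockout, against 8.59, 8.64 and 8.48 in control livers. The groups overlapped, and the log2 difference was -0.18 (SE 0.10). Slc7a2, the cationic transporter CAT2 of liver and macrophages, read 6.77, 6.28 and 6.98 in livers labelled knockout, against 5.30, 6.31 and 6.46 in control livers. The Slc7a2 groups overlapped too, and control replicate 1 lay about 1 unit below the other controls. The Slc7a2 difference was 0.66 (SE 0.31) with all arrays, 0.29 (SE 0.20) without control replicate 1 and 0.37 against control replicate 2 alone. Of the 3 cationic transporters, the groups were thus apart for Slc7a3 and overlapped for Slc7a2 and Slc7a1.

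**Figure D1:**
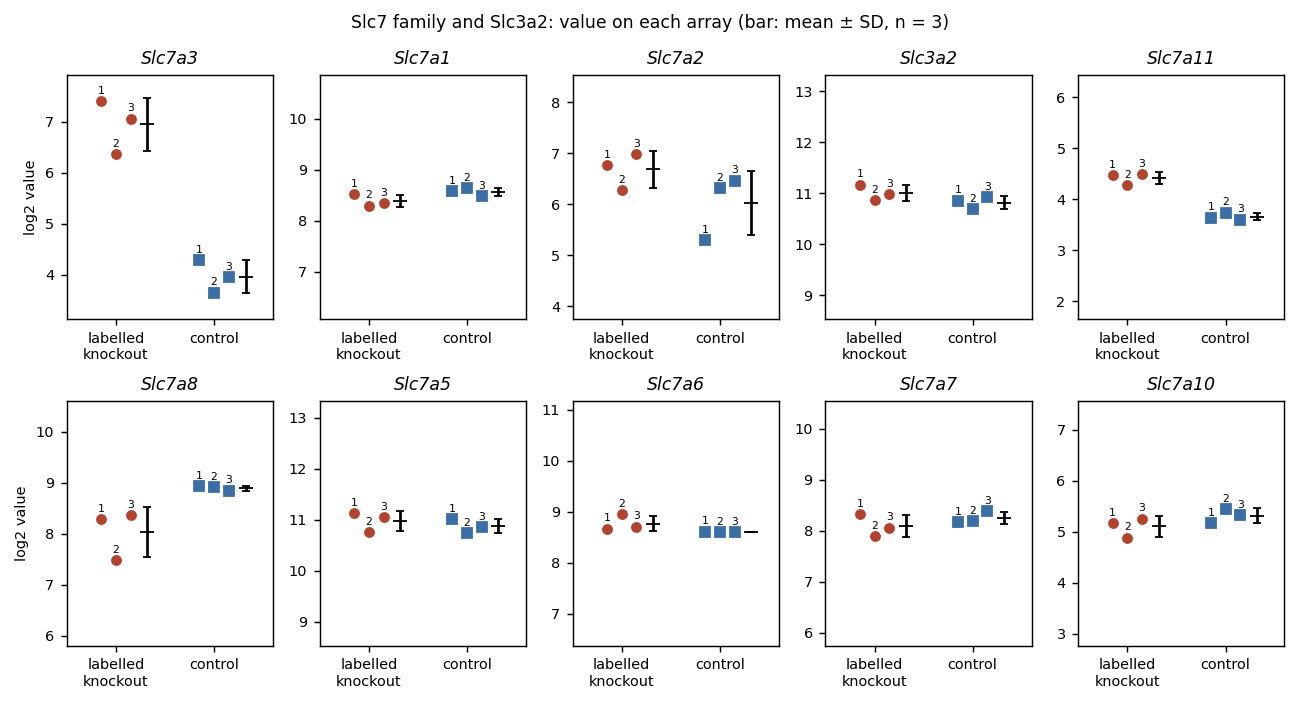
Log2 value of each gene on each array, livers labelled knockout (circles) left of control livers (squares), with replicate numbers above the points and a bar for the mean ± SD (n = 3). All panels span the same number of log2 units. The groups are farthest apart for Slc7a3, separate also for Slc7a11, Slc7a8 and narrowly Slc7a6, and overlap in the other 6 panels.

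The shared heavy chain Slc3a2, also known as CD98 or 4F2hc, brings the light chains to the cell surface. It read 11.17, 10.87 and 10.98 in livers labelled knockout, against 10.86, 10.69 and 10.92 in control livers. These values overlapped, with 8 of 9 single-array differences positive and a log2 difference of 0.18 (SE 0.11). Leaving out 1 array gave 0.10 to 0.25, and against control replicate 2 alone it was 0.32. Slc7a5, the light chain LAT1 for large neutral amino acids such as leucine, is a classic partner of Slc3a2. It read 11.13, 10.76 and 11.05 in livers labelled knockout, against 11.01, 10.73 and 10.86 in control livers. The Slc7a5 groups overlapped, and the difference of 0.11 (SE 0.13) was between 0.03 and 0.22 when 1 array was left out. Against control replicate 2 alone it was 0.24.

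Slc7a11, the light chain xCT, imports cystine in exchange for glutamate and so supplies cysteine for glutathione. Slc7a11 read 4.48, 4.28 and 4.49 in livers labelled knockout, against 3.64, 3.74 and 3.60 in control livers. The groups did not overlap, and the spread within each (0.21 and 0.14 from lowest to highest) was smaller than the smallest single-array difference, 0.54. The means were 4.42 ± 0.12 in livers labelled knockout and 3.66 ± 0.07 in control livers (SD, n = 3 each), a difference of 0.76 (SE 0.10) in normalised log2 values. It was 0.68 against control replicate 2 alone and between 0.72 and 0.83 without any 1 array. All 6 values are below the array median of 5.43, so this is a dim feature as well, and no fold in RNA is given for it either. Its window, shown above, holds an ATF4 element on each strand, and the Slc7a7 window shown holds matches too. Binding was not measured, and the part of these matches in either value was not tested.

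Slc7a8, the light chain LAT2 for small and large neutral amino acids, had the most negative difference of the 10 genes. It read 8.29, 7.48 and 8.37 in livers labelled knockout, against 8.94, 8.92 and 8.85 in control livers. The groups did not overlap. The controls spanned 0.09 from lowest to highest, whereas the livers labelled knockout spanned 0.89, with replicate 2 far below the other two. The log2 difference was -0.86 (SE 0.22), a 1.81-fold lower level, and -0.57 (SE 0.10) without labelled knockout replicate 2. It was -0.88 against control replicate 2 alone. Of 12 macrophage markers, 9 fell and 0 rose (11 lower and 1 higher at an unadjusted p under 0.05), with summed linear values of 2320 to 2950 in livers labelled knockout and 3400 to 4120 in control livers. The 1 higher marker, Vcam1 (0.33), was the brightest of the 12 on every array, so it weighs most in these sums. For the marker lists of this paragraph, the shares of all genes past the threshold were 3.59% higher and 2.77% lower. Spic, a transcription factor of red pulp and liver macrophages, changed by -1.80 (limma adjusted p = 0.00911), Timd4 by -1.48 (adjusted p = 0.00827) and Csf1r by -1.33 (adjusted p = 0.0122). Adgre1 changed by -1.45 (adjusted p = 0.017), and Cd68 did not pass (-0.74, adjusted p = 0.0518). Of 10 erythroid markers 4 fell and 0 rose (9 lower at an unadjusted p under 0.05), and their sums were 9270 to 11100 in livers labelled knockout and 13100 to 18800 in control livers. Of 9 sinusoidal markers 6 fell and 0 rose (6 lower at an unadjusted p under 0.05), with sums of 1340 to 1780 in livers labelled knockout and 2910 to 3240 in control livers. Without 1 array these 3 lists had 5 to 22 genes lower in all, against 19 with all arrays, fewest without control replicate 3 (25 at an unadjusted p under 0.05). With a sex term 0 of the 31 were lower (21 at an unadjusted p under 0.05), and without the 2 arrays highest in heart muscle markers 1 was (24). Spic, Timd4 and Csf1r passed in 5 of the 6 limma fits without 1 array, with adjusted p-values of 0.0536, 0.0536 and 0.0584 without control replicate 3. Adgre1 passed in 3 of these fits (adjusted p at most 0.0742). No marker can read 0 on this scale. The part of these cells in the Slc7a8 value was not tested.

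Slc7a7, the light chain y+LAT1, exchanges cationic for neutral amino acids and is prominent in macrophages. It is on chromosome 14 like Slc7a8, with 15 protein-coding genes between them in the RefSeq order. Gata4 itself is on chromosome 14 too, and the name of the floxed line holds 2 strains, B6 and 129. The part of strain sequence linked to the floxed Gata4 in the Slc7a7 and Slc7a8 values was not tested, and the design cannot tell it apart from the loss of Gata4. Slc7a7 read 8.32, 7.90 and 8.06 in livers labelled knockout, against 8.16, 8.19 and 8.39 in control livers. Its groups overlapped, and the difference was -0.15 (SE 0.13), between -0.27 and -0.06 when 1 array was left out. The difference was smaller than the spread within the livers labelled knockout (0.43 from lowest to highest). The macrophage marker list, with a median difference of -1.19, was lower on the same arrays, and its part in the Slc7a7 value was not tested.

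Slc7a6, the light chain y+LAT2, has the same exchange activity with a wider expression. Slc7a6 read 8.67, 8.95 and 8.71 in livers labelled knockout, against 8.61, 8.60 and 8.60 in control livers. These did not overlap, but by a margin of 0.06, and the difference was 0.17 (SE 0.10), or 0.08 (SE 0.093) without labelled knockout replicate 2, the highest. Slc7a10, the light chain Asc-1 for small neutral amino acids including D-serine, read 5.18, 4.89 and 5.26 in livers labelled knockout, against 5.17, 5.45 and 5.33 in control livers. The groups overlapped, with a difference of -0.21 (SE 0.13). It was -0.34 against control replicate 2 alone and -0.10 (SE 0.11) without labelled knockout replicate 2, so its size rests on single arrays.

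**Figure D2:**
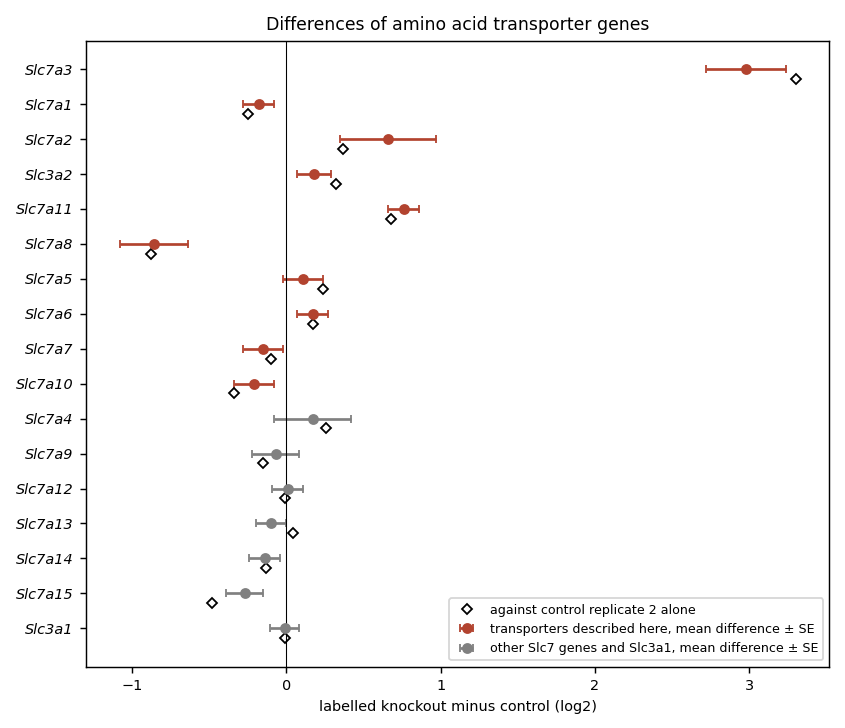
Difference between livers labelled knockout and control livers in log2 units for the 10 genes and for the other Slc7 genes with Slc3a1. Filled points are the mean difference with its standard error from the model over all 6 arrays, and open diamonds the mean of the livers labelled knockout minus control replicate 2 alone. Slc7a3 stands at 2.98 (diamond 3.30), Slc7a11 at 0.76 and Slc7a8 at -0.86, and the other Slc7 genes lie between -0.27 and 0.17. These other Slc7 genes and Slc3a1 read below the array median of 5.43 on every array.

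Read together, 6 of the 10 genes had a positive and 4 a negative difference, with a median of 0.14 against -0.01 over all genes. In limma 2 of the 10 were past an adjusted p of 0.05 as higher (Slc7a3 and Slc7a11) and 0 as lower, with 1 lower (Slc7a8) at an unadjusted p under 0.05. Over all genes 3.59% were higher and 2.77% lower at that threshold, 6.36% in all. The groups did not overlap in 4 of the 10, 3 of them higher and 1 lower, against 27.3% of all genes (13.0% higher and 14.3% lower). Since the genes were chosen from this same comparison, nothing is read from these counts. With a sex term 0 of the 10 passed (2 higher and 1 lower at an unadjusted p under 0.05). Labelled knockout replicate 2 was the lowest of its group in 9 of the 10 genes, the exception being Slc7a6, where it was the highest. Over all genes it was the lowest in 35.9%. The SD was larger in livers labelled knockout than in control livers for 9 of the 10 genes, as it was for 57.6% of all genes.

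No other gene of the family passed. None of the 7 genes Slc7a4, Slc7a9, Slc7a12, Slc7a13, Slc7a14, Slc7a15 and Slc3a1 passed the limma test, and 0 did so at an unadjusted p under 0.05. All 7 read below the array median of 5.43 on every array. They are thus dim features, and how much of their signal is background is unknown. Slc3a1 is the heavy chain of the kidney cystine transporter, whose light chain is Slc7a9. Slc7a15 had the smallest p, with values of 3.52, 3.55 and 3.40 in livers labelled knockout and 3.58, 3.97 and 3.73 in control livers, a difference of -0.27 (limma adjusted p = 0.230). Slc7a14 (-0.14, adjusted p = 0.471), Slc7a13 (-0.10, adjusted p = 0.678) and Slc7a4 (0.17, adjusted p = 0.761) followed. A p that misses the threshold does not show that these genes were alike in the groups.

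Amino acid transporters of other families changed in both directions. Among 35 such genes 2 rose and 3 fell, while 30 missed the threshold (4 higher and 7 lower at an unadjusted p under 0.05), with a median difference of 0.03. The shares of all genes past the threshold were 3.59% higher and 2.77% lower. Slc38a3, a glutamine transporter of hepatocytes, rose: it read 7.26, 6.84 and 7.21 in livers labelled knockout, against 6.20, 5.88 and 6.20 in control livers, a log2 difference of 1.01 (SE 0.15, limma adjusted p = 0.0137). Slc38a2, a neutral amino acid transporter known to be induced by amino acid shortage, rose by 0.41 (adjusted p = 0.0445), chosen as the other rise in this list. Slc38a5, another glutamine transporter, read 8.79, 8.59 and 8.82 in livers labelled knockout, against 9.26, 9.43 and 9.68 in control livers, and fell by 0.73 (SE 0.13, adjusted p = 0.0231). Slc16a10, a transporter of aromatic amino acids, fell by 0.73 (adjusted p = 0.0407) and Slc38a10 fell by 0.45 (adjusted p = 0.0350). Against control replicate 2 alone these differences were 1.23 for Slc38a3, -0.70 for Slc38a5, -0.64 for Slc16a10 and -0.46 for Slc38a10. Of the 6 limma fits that each left out 1 array, Slc38a3 passed in 4 (adjusted p at most 0.0584), Slc38a5 in 3 (at most 0.0827), Slc16a10 and Slc38a10 in 1 each (at most 0.123 and 0.114) and Slc38a2 in 0 (0.0832 to 0.155), with the highest p in each case without control replicate 3.

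Those genes of the amino acid response that passed were higher. Among 31 such genes 4 rose and 0 fell, while 27 missed the threshold (9 higher and 1 lower at an unadjusted p under 0.05), with a median of 0.13, and part of this list was known from earlier results of these arrays to rise. The shares of all genes past the threshold were 3.59% higher and 2.77% lower. Cth, which makes cysteine from cystathionine, read 9.56, 9.13 and 9.58 in livers labelled knockout, against 8.47, 8.13 and 8.51 in control livers, and rose by 1.05 (SE 0.16, limma adjusted p = 0.0151). The mTORC1 inhibitor Ddit4 rose by 1.80 (adjusted p = 0.0074), the lipoprotein receptor gene Vldlr by 1.59 (adjusted p = 0.0132) and the secreted glycoprotein Stc2 by 1.47 (adjusted p = 0.0132). These 3 genes are also known targets of low oxygen. Other defining genes of the response did not pass. Atf4 itself differed by 0.18 (adjusted p = 0.377), and asparagine synthetase Asns by -0.06 (adjusted p = 0.854). The pseudokinase gene Trib3 (0.82, adjusted p = 0.0762) and the glutathione-degrading Chac1 (0.96, adjusted p = 0.0938) had groups that did not overlap. So did Ppp1r15a, in the other direction (-0.57, adjusted p = 0.0627). Of the 31 genes, 11 had groups apart as higher and 1 as lower, against 13.0% and 14.3% of all genes. Atf4, Asns, Trib3, Chac1 and Ppp1r15a were picked after their values were seen. Without any 1 array Ddit4 passed in all 6 limma fits, and Cth, Vldlr and Stc2 in 4 each, with adjusted p-values up to 0.0584, 0.0537 and 0.0545 without control replicate 3.

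Genes of arginine metabolism changed in both directions, and the genes that passed in the cystine and glutathione list were lower. In arginine and polyamine metabolism 1 of 22 rose and 2 fell (1 and 4 at an unadjusted p under 0.05), with a median of 0.02. For both lists of this paragraph, the shares of all genes past the threshold were 3.59% higher and 2.77% lower. Gatm, the first enzyme of creatine synthesis from arginine, read 6.75, 6.36 and 6.44 in livers labelled knockout, against 7.37, 7.26 and 7.87 in control livers, and fell by 0.98 (SE 0.18, limma adjusted p = 0.0248). The polyamine acetylase Sat1 fell by 0.45 (adjusted p = 0.0404), Ddah2 rose by 0.49 (adjusted p = 0.0444), and the antizyme Oaz1 did not pass (-0.59, adjusted p = 0.0780). In the cystine and glutathione list, which also holds stress genes, 0 of 16 rose and 3 fell (0 and 9 at an unadjusted p under 0.05). Its median was -0.30, opposite in sign to Slc7a11 and to Cth, which was counted above. The glutathione synthesis genes Gclc (-0.37, adjusted p = 0.192), Gclm (-0.23, adjusted p = 0.272) and Gss (-0.22, adjusted p = 0.2), picked later, did not pass. Hmox1, the heme-degrading enzyme abundant in macrophages, read 9.62, 9.08 and 8.99 in livers labelled knockout, against 10.58, 10.21 and 10.08 in control livers, and fell by 1.06 (SE 0.19, adjusted p = 0.0246). Sulfiredoxin Srxn1 fell by 0.42 (adjusted p = 0.0387), and the factor gene Nfe2l2, which encodes NRF2, by 0.37 (adjusted p = 0.0481). Glutathione peroxidase Gpx1 did not pass (-0.39, adjusted p = 0.0507). The macrophage markers given above were lower on the same arrays, and their part in these values was not tested. Of the 6 limma fits without 1 array, Gatm passed in 2, Hmox1, Srxn1 and Ddah2 in 1 each, and Sat1 and Nfe2l2 in 0 (adjusted p up to 0.125 and 0.15).

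Of 26 genes that sense amino acids for the growth kinase complex mTORC1, 1 rose and 0 fell (3 higher and 4 lower at an unadjusted p under 0.05), with a median of -0.03. The shares of all genes past the threshold were 3.59% higher and 2.77% lower. Bmt2, a sensor of S-adenosylmethionine, read 8.82, 8.72 and 8.99 in livers labelled knockout, against 8.34, 8.40 and 8.29 in control livers, and rose by 0.50 (SE 0.10, limma adjusted p = 0.0312), which held in 1 of the 6 fits without 1 array (adjusted p up to 0.12 without control replicate 3). The Ragulator subunits Lamtor1 (-0.31, adjusted p = 0.0735) and Lamtor2 (-0.31, adjusted p = 0.112) and the GTPase gene Rragb (0.50, adjusted p = 0.161) did not pass. The median difference over the 137 related genes of all 6 lists was 0.01. Beside 3.59% higher and 2.77% lower of all genes, 8 of the 137 rose and 8 fell. Without control replicate 3 these counts were 1 and 0 (18 and 19 at an unadjusted p under 0.05), without labelled knockout replicate 3 they were 1 and 0, and with a sex term both were 0 (14 and 13).

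**Figure D3:**
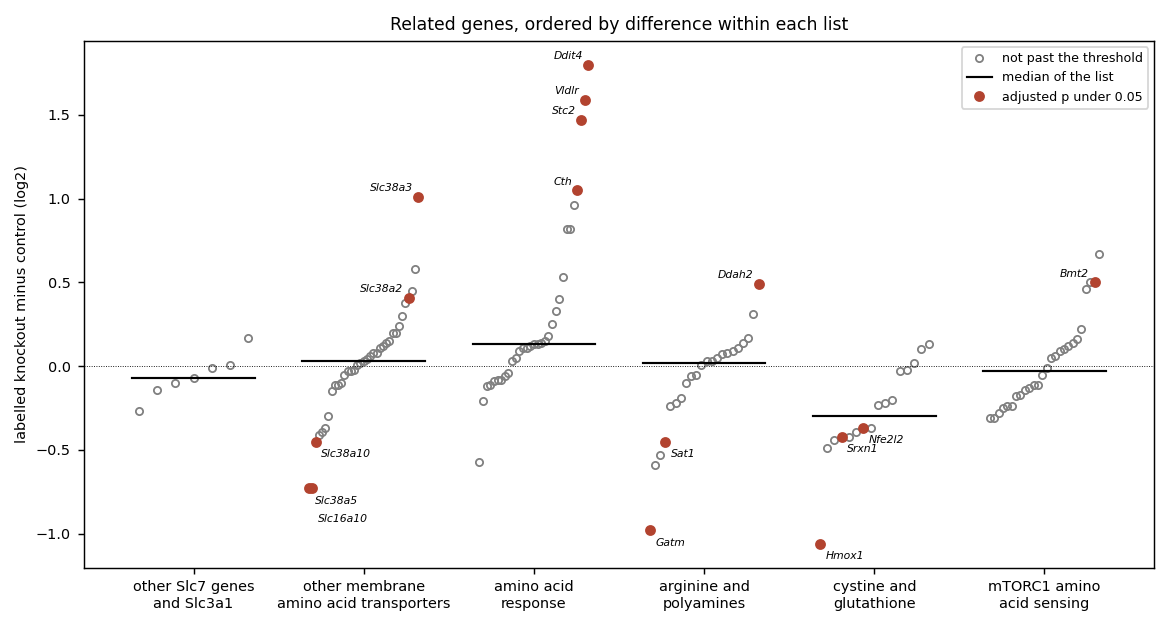
Log2 difference between livers labelled knockout and control livers for the 137 related genes in 6 lists, ordered within each list. Filled points passed limma at an adjusted p under 0.05 (8 higher and 8 lower), open points did not, and the line is the list's median, from -0.30 for the cystine and glutathione list to 0.13 for the amino acid response.

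The genes whose values followed Slc7a3 most closely were found by the Euclidean distance over the 6 arrays, with each gene taken as its log2 value minus its control mean. They were Sparcl1 (distance 1.19), a matricellular protein, Prnd (1.52), a prion-like protein, Ddit4 (2.12), Ciart (2.25), a circadian repressor, and Rgs5 (2.36), a pericyte gene. The distance depends on the size of the change, so it picks genes of large difference. Sparcl1 and Prnd were not lowest in labelled knockout replicate 2, where Slc7a3, Ddit4 and Ciart were: Prnd read 8.76 there, its highest value. The mesenchymal markers, among them Rgs5, had 5 of 10 past the threshold as higher and 0 as lower (7 and 0 at an unadjusted p under 0.05), with summed linear values of 12300 to 12900 in livers labelled knockout and 7960 to 8930 in control livers. Without 1 array 1 to 5 of the mesenchymal markers passed, with a sex term 1 did, and with the replicate number as a block 2 did. Without the 2 arrays highest in heart muscle markers 0 passed (6 higher at an unadjusted p under 0.05). For the marker lists of this paragraph, the shares of all genes past the threshold with all arrays were 3.59% higher and 2.77% lower. Of 10 markers of brain barrier endothelium, which also carries Slc7a5 and Slc3a2, 2 were higher (Slc2a1 0.65, adjusted p = 0.0278, and Lef1 0.81, adjusted p = 0.0315) and 1 lower (Slc38a5). Slc2a1 and Lef1 passed in 1 each of the 6 fits without 1 array. Of 8 neural markers 0 passed (1 higher at an unadjusted p under 0.05), with summed linear values of 317 to 657 in livers labelled knockout and 290 to 302 in control livers. Their part in the Slc7a3 value was not tested.

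**Figure D4:**
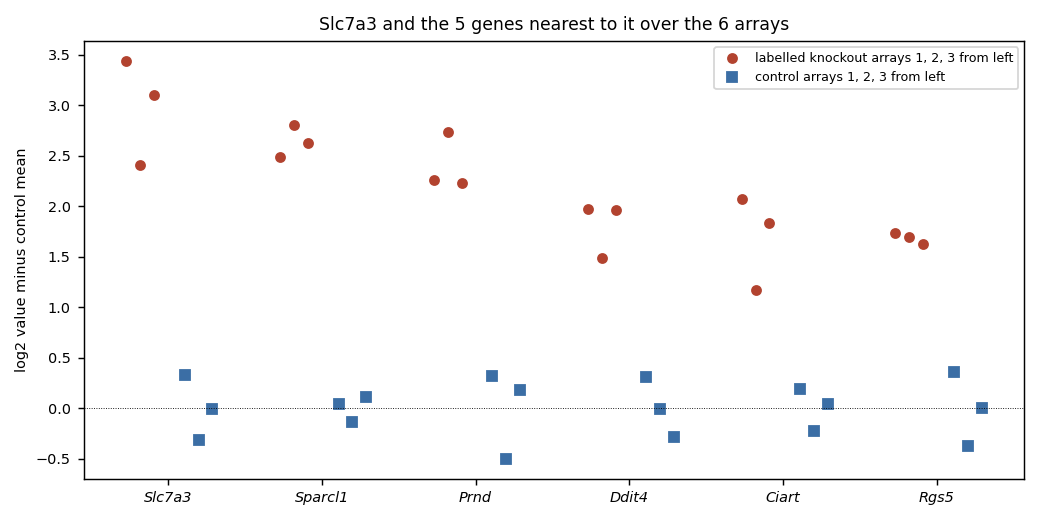
Log2 value minus the control mean on each array for Slc7a3 and its 5 nearest genes, livers labelled knockout (circles) left of control livers (squares), replicates 1 to 3 from left to right. Every circle lies above every square for all 6 genes, and replicate 2 is the lowest circle for Slc7a3, Ddit4 and Ciart but not for Sparcl1, Prnd or Rgs5.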

How the data were processed

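RNA of 6 fetal livers was hybridised to Affymetrix arrays, and the values deposited by the authors are on a log2 scale. The submitters' processing notes name RMA with no version, a method of background subtraction, quantile normalisation and probe summary. Sorted values are the same on all 6 arrays, so a change common to most genes would not show. The sources used here do not state the chip definition. Of 24479 features, 23281 were named through the platform annotation and a RefSeq gene table (GRCm38.p6), 1198 were not, and the dimmer feature of a gene was dropped in 2 cases. Columns without a sample numbered 0.

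The test was limma 3.58.1 (R 4.3.3) on 23279 genes with no covariate and no filter, with Benjamini-Hochberg adjustment over all of them and an adjusted p of 0.05. The procedure was tested on simulated data. The transporters, lists, motifs and rules were chosen with earlier results of these data known, so no p-value is printed for any of the 10 transporters, and how many passed is a description set beside the share of all genes. With 3 arrays a group the smallest two-sided p of an exact permutation test is 0.1. The labels call the replicates biological. Named genes are the 10 transporters, up to 4 genes of each related list with the smallest p, markers and the 5 genes nearest to Slc7a3. The first written markers of each list, up to 4, were preset. The markers Timd4, Lef1 and Sox2 were named outside that rule, and other genes are said to be chosen later. Of 145 members of the related lists, 8 were not analysed here (Phgdh, Pycr1, Gdf15, Nars1, Amd1, Trp53, Ggt1 and Rps6kb1). A marker list's summed level is the sum of its members' values turned back to the linear scale. Alternatives were a variance trend, robust and weighted fits, filters on dim genes, a replicate block, a sex term, another centring, another threshold and leaving out arrays.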

Additional observations from a re-analysis of the deposited data

How the results depend on the processing

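The size of each of the 10 transporter differences moved by less than 1 SD between replicates, and none that passed changed sign, under array weights, the replicate block, a sex term, another centring, leaving out any 1 array, and leaving out the 2 arrays highest in heart muscle markers, an alternative chosen after seeing the data. Counts of calls moved more. Without any 1 array, 25 to 785 of all genes were higher and 16 to 610 lower (836 and 644 with all arrays), fewest without control replicate 3. Of the transporters 1 to 2 were higher and 0 to 1 lower, Slc7a11 being lost without control replicate 3 and Slc7a8 gained without labelled knockout replicate 2, and of the related genes 1 to 9 were higher and 0 to 7 lower. With a sex term, which leaves control replicate 2 as the only female control, limma passed 3 genes as higher and 0 as lower (1640 and 1619 at an unadjusted p under 0.05), 0 and 0 transporters (2 and 1) and 0 and 0 related genes (14 and 13). Without the 2 arrays highest in heart muscle markers it passed 7 and 10 of all genes, 0 and 0 transporters (2 and 1) and 0 and 0 related genes (13 and 15), with 4 arrays left. At an adjusted p of 0.1 it passed 1430 and 1270 of all genes, 14 and 15 related genes and 1 lower transporter, Slc7a8. Slc7a8 also made the count lower 1 with a variance trend, with array weights and without the dimmest 25% or 50% of genes. The cut at 50% left out Slc7a3 and Slc7a11, so 0 transporters were higher (0 also at an unadjusted p under 0.05), and 14 related genes were lower there. With the replicate number as a block 405 and 281 of all genes and 5 and 4 related genes passed, and the 2 transporters stayed. With each group centred on its own mean, same-numbered arrays had correlations of -0.0518, -0.011 and -0.0767. Those of the other pairs were -0.0538 to 0.106. With 3 arrays a group, such values cannot tell whether litters or batches were shared. The other alternatives kept these counts within 1.5 times. Slc7a3 in control livers and Slc7a11 on all arrays read below the array median, and their signal over background is unknown, since the files used here hold no detection value.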

Other observations

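The genes nearest to Slc7a11 and to Slc7a8 by the same distance were looked up after the values of the transporters were seen, and are given as a description with no test. Nearest to Slc7a11 were P4ha1, a collagen prolyl hydroxylase (difference 0.73), Angpt2, a ligand of the endothelial receptor Tie2 (0.72), the semaphorin Sema5a (0.72), the long non-coding RNA Carmn (0.75) and the adhesion molecule Madcam1 (0.74). Their distances from Slc7a11 were 0.0898 to 0.151.

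Nearest to Slc7a8 were the leukocyte genes Lst1 (-0.75) and Parvg (-0.89), the phagocyte oxidase subunit Ncf1 (-0.80), the small GTPase gene Rab32 (-0.76) and Fam78a (-0.91), at distances of 0.302 to 0.378. Like Slc7a8, these 5 genes had their lowest value in labelled knockout replicate 2. The choice by distance over the same arrays favours such genes, so nothing is read from this. Lst1 read 3.86 there and 4.71 in replicate 3, against 5.19 to 5.28 in control livers.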
